A study of Mus musculus with 6 samples.

Results

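The 35 genes described here encode enzymes and carriers of fatty acid and triglyceride synthesis. They were taken from the deposited expression table by symbol, from a list of names, and all 35 were found among its 22134 genes. RNA was sequenced from adipose tissue of wild-type (WT) mice in 6 libraries. The 3 libraries of creeping fat (CF1 to CF3 in the labels, called creeping fat 1 to 3) came from mice with repeated colonic cautery injury, and the 3 control libraries (CON1 to CON3, called control 1 to 3) came from mesenteric adipose tissue of mice with no injury. Strain, age and sex are not in the labels, and nothing states whether each library is a different mouse. A p-value therefore reflects the spread among the libraries at hand, which may be technical. Values are FPKM, a level per gene length and per size of the library, so levels of different genes can be set side by side.

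Creeping fat is mesenteric fat that wraps around diseased bowel. White adipocytes make fatty acids from glucose by exporting citrate from the mitochondrion, splitting it into acetyl-CoA, carboxylating that to malonyl-CoA, and joining the units on fatty acid synthase. The product is elongated and desaturated, activated to acyl-CoA, and attached in turn to glycerol phosphate until triglyceride is formed and stored in the lipid droplet. Several of these steps have one enzyme that is abundant in fat, liver or lactating mammary gland beside relatives that most cells use for membrane lipids.

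The libraries held 31186018 to 43415696 reads, as worked out from the FPKM steps. Among the tested members the reads of a gene in a library went from 10 (Mogat1, creeping fat 1) to 1805021 (Scd1, control 1). Control 2 stood apart from the other controls, with a correlation across genes of 0.898 with control 1 and 0.922 with control 3, against 0.982 between control 1 and control 3. All 12 adipocyte markers looked at were detected in every library, and they made up 0.339% to 0.832% of all FPKM in creeping fat and 1.49% to 4.15% in controls. Seminal vesicle markers, 8 of 8 called higher, made up 4.87% to 8.78% in creeping fat and no more than 0.0156% in any control. Pancreatic acinar markers, 7 of 10 called lower, made up 3.61% to 9.49% in controls. In creeping fat 1 to 3 they made up 0.00614%, 1.2% and 0.0034%. Creeping fat 2 also had the highest correlation of the creeping fat libraries with each control, at 0.849, 0.851 and 0.867 with control 1 to 3. Exons of 7 members overlap those of another gene of the table in GENCODE M21 (Acss2, Elovl1, Elovl3, Acsl3, Acsl5, Agpat1 and Agpat2), and the use of strand in counting is not known, so reads of such neighbours cannot be told apart.

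Each of the 6 steps of the route held at least 1 gene that fell in creeping fat, and 5 of them also held genes that were not called. Of the 35 members 33 passed the filter of at least 1 FPKM in at least 3 libraries and were tested. Of these 20 fell, 1 rose (Acsl4) and 12 were not called on the FPKM scale, whereas on a scale of adipocyte transcripts, which moved the median of all genes to 2.84, 0 were lower. A call is a Benjamini-Hochberg adjusted p under 0.05 in limma over all 12812 genes tested. Of all these genes 6.81% were called lower and 9.35% higher. The median log2 fold change of the tested members was -2.22, beside 0.02 over all genes tested. In 24 tested members every creeping fat library lay below every control library, and in 1 above, where 16.9% and 20.2% of all tested genes did so. Without control 2, the library that stood apart, 25 members were lower and 2 higher, beside 1857 and 2896 of all 12812 genes tested. Without control 2 and creeping fat 2 the counts were 24 and 1, beside 1731 and 2713. With creeping fat 1, creeping fat 3 or control 3 left out 12, 13 and 12 members were called lower. Of all genes tested 287, 342 and 306 were lower in these fits. A fold change is given as the mean of log2(FPKM + 1) in creeping fat less that in controls, with its standard error (SE), and it understates the change of low genes. Fewer adipocytes and less RNA per adipocyte cannot be told apart in RNA of whole tissue.

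**Figure D1:**
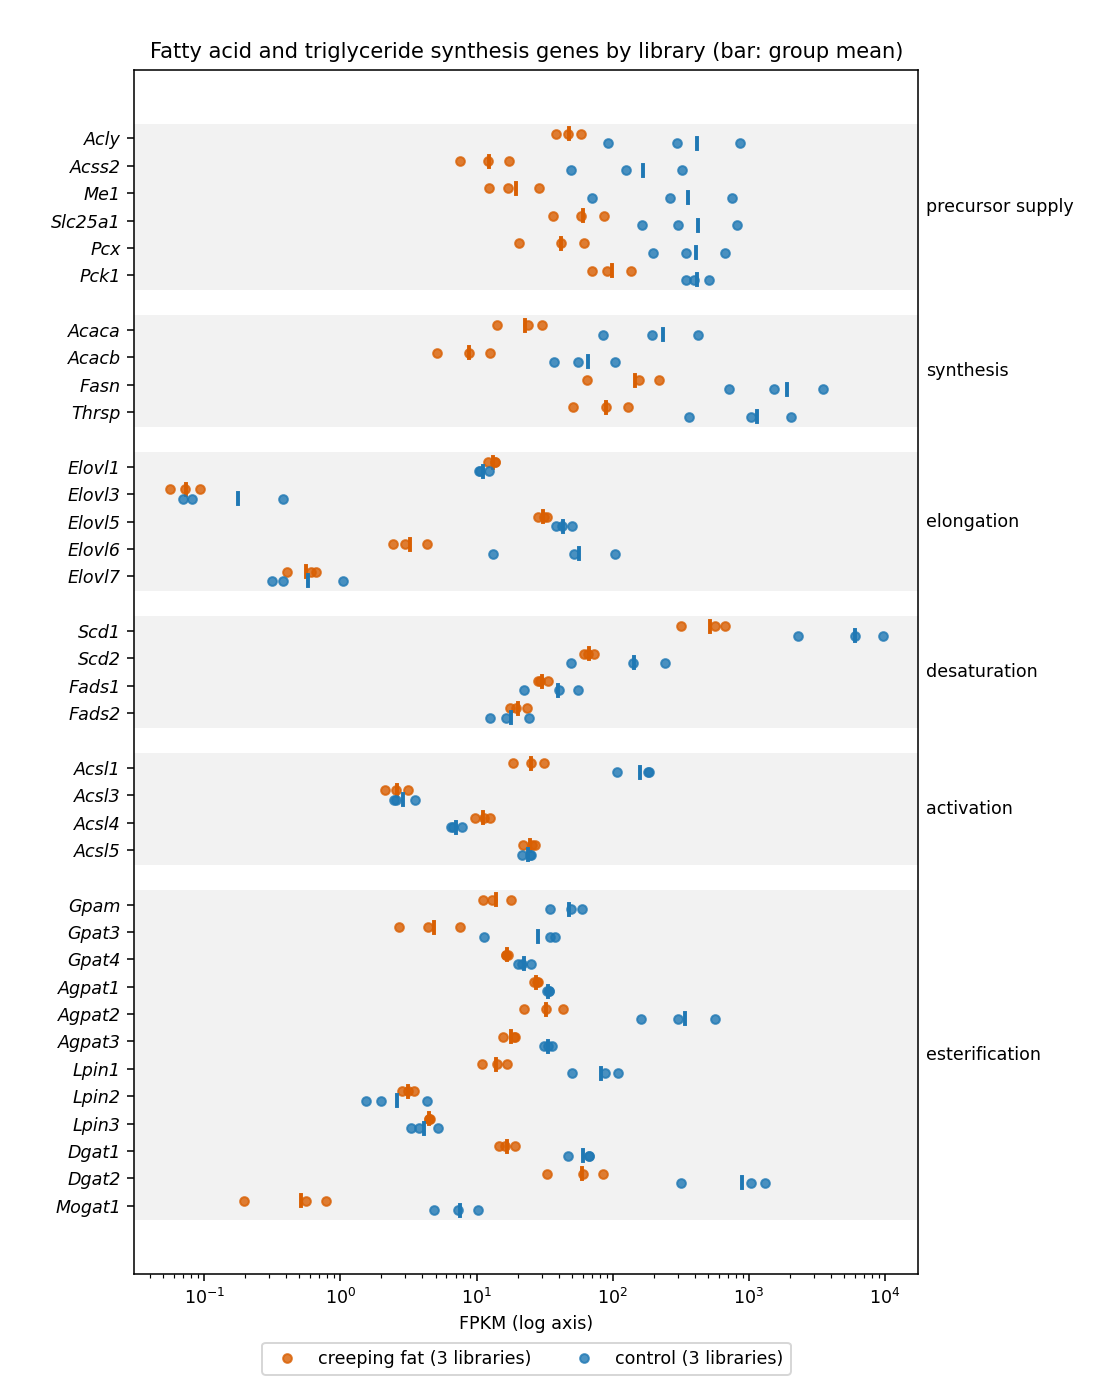
FPKM (log axis) of the 35 genes in the 3 creeping fat libraries (orange) and the 3 control libraries (blue), by step, with a vertical bar at each group mean. Fasn sits at 64.3 to 218 FPKM in creeping fat and 719 to 3508 in controls, whereas Elovl1 sits at 12.1 to 13.7 and 10.4 to 12.3.

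Precursor supply fell in 5 of 6 genes. Me1, the cytosolic malic enzyme that yields NADPH, had 12.3, 28.6 and 17.1 FPKM in creeping fat 1 to 3, against 746, 70.6 and 261 FPKM in control 1 to 3. Acss2, which makes acetyl-CoA from acetate in the cytosol, had 7.56, 17.4 and 12.02 FPKM in creeping fat, against 323, 49.4 and 124 FPKM in controls. All creeping fat libraries lay below all controls for both, and the controls differed among themselves by more than the creeping fat libraries did. Me1 fell by 3.65 ± 0.80 (adjusted p = 0.0247) and Acss2 fell by 3.32 ± 0.65 (adjusted p = 0.0171). Pcx, the mitochondrial pyruvate carboxylase, had 20.4, 61.6 and 41.8 FPKM in creeping fat and 672, 197 and 346 FPKM in controls, and fell by 3.22 ± 0.54 (adjusted p = 0.0103).

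Slc25a1, the mitochondrial citrate carrier, had 36.1, 85.5 and 58.6 FPKM in creeping fat and 813, 164 and 299 FPKM in controls. Its groups did not overlap, and it fell by 2.57 ± 0.60 (adjusted p = 0.0296). Acly, the ATP citrate lyase that splits the exported citrate, had 38.0, 58.8 and 46.5 FPKM in creeping fat, against 853, 92.9 and 296 FPKM in controls. The groups of Acly did not overlap either, but its difference of -2.58 ± 0.73 was not called (adjusted p = 0.0564), and it was called without control 2 (-3.39, adjusted p = 0.00184). Pck1, the cytosolic phosphoenolpyruvate carboxykinase, supplies glycerol phosphate in adipocytes. It had 69.7, 135 and 91.2 FPKM in creeping fat and 346, 397 and 509 FPKM in controls, and fell by 2.10 ± 0.28 (adjusted p = 0.0051). Pck1 was the gene of this step whose control 2 did not lie below the other controls.

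Calls of this step depended on single libraries for Me1, Acss2 and Slc25a1. Acss2 had adjusted p of 0.0729, 0.0633 and 0.0681 on leaving out creeping fat 1, creeping fat 3 and control 3. Me1 had 0.0983, 0.0525, 0.0861 and 0.0925 without creeping fat 1, 2, 3 and control 3, in that order. Slc25a1 had 0.112, 0.0528, 0.0934 and 0.0911 under the same exclusions. Pcx and Pck1 were called in all 6 fits that leave out 1 library.

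All 4 genes of fatty acid synthesis proper fell. Fasn, the fatty acid synthase, had 64.3, 218 and 155 FPKM in creeping fat 1 to 3, against 3508, 719 and 1526 FPKM in control 1 to 3. By its group mean it ranked 280 among all genes of the table in creeping fat and 15 in controls. Thrsp, a small nuclear and cytosolic protein induced with lipogenesis, had 51.1, 129.7 and 88.4 FPKM in creeping fat and 2048, 364 and 1040.4 FPKM in controls. Both genes had non-overlapping groups, and control 2 was the lowest control for both. Fasn fell by 3.58 ± 0.66 (adjusted p = 0.0139) and Thrsp fell by 3.44 ± 0.64 (adjusted p = 0.0144).

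Acaca and Acacb encode the acetyl-CoA carboxylases, the cytosolic form that feeds synthesis and the form at the mitochondrial surface that restrains fatty acid import. Acaca had 14.0, 30.2 and 23.7 FPKM in creeping fat and 421, 85.3 and 195 FPKM in controls, and fell by 3.09 ± 0.57 (adjusted p = 0.0141). Acacb had 5.07, 12.5 and 8.72 FPKM in creeping fat and 104, 37.0 and 55.2 FPKM in controls, and fell by 2.71 ± 0.43 (adjusted p = 0.00891). Acaca was the more abundant carboxylase in every library of both groups. Acacb was called whichever library was left out. Fasn had an adjusted p of 0.0531 without creeping fat 1 and 0.0579 without control 3. Without creeping fat 1, creeping fat 3 or control 3 the adjusted p was 0.0622, 0.0524 and 0.0601 for Acaca and 0.0631, 0.0561 and 0.0635 for Thrsp.

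The sequences before Fasn and Thrsp are shown as examples of genes that fell by over 3 on the log2 scale. Acss2, Me1, Pcx, Acaca, Elovl6, Scd1, Agpat2 and Dgat2 also fell by over 3, and their sequences are not shown. Each is the 250 bases before the RefSeq start of the gene, 5′ to 3′ on the strand of the gene, in build GRCm38.p6, the assembly also called mm10. Capitals mark 6 short motifs searched on both strands: TCACNCCAC (a sterol response element, bound by SREBP), CCAAT (NF-Y), CACGTG (an E-box), GGGCGG (a GC box, Sp1), TTGCNNCAA (C/EBP) and AGGTCA (a nuclear receptor half-site). In GENCODE M21 Fasn lies on chromosome 11 from 120805846 to 120824547, and the stretch shown is chr11:120824548-120824797, minus strand. Thrsp lies on chromosome 7 from 97412938 to 97417730, and the stretch shown is chr7:97417551-97417800, minus strand, part of which lies inside the longer GENCODE model.
Fasn: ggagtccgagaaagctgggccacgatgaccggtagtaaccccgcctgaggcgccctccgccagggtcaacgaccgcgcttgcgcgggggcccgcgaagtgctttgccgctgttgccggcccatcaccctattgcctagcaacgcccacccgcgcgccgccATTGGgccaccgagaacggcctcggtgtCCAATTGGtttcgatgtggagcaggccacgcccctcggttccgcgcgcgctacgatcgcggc
Thrsp: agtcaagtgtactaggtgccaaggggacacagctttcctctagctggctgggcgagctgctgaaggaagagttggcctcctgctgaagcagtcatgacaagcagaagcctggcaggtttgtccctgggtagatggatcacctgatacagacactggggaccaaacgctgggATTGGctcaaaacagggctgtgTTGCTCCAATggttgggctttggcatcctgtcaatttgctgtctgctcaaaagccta
Positions count the first base of a match back from the start, -1 being the base before it. The Fasn stretch holds 3 CCAAT boxes, 2 of them overlapping on opposite strands at -62 and -59, and 1 at -90. The Thrsp stretch holds 2 CCAAT boxes at -79 and -52, the nearer one overlapping a C/EBP match at -57.

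RefSeq promoters were matched for 28 members with 37 starts in all. Elovl3, Scd1, Scd2, Fads1, Gpat4, Dgat1 and Dgat2 were not matched. CCAAT was found in 9 of 21 promoters of members that fell and in 6 of 16 of the other members, beside 33.8% of all 32851 promoters. The GC box was found in 9 of 21 and 12 of 16, beside 32.7%, the E-box in 2 of 21 and 2 of 16, beside 6.02%, and the half-site in 3 of 21 and 3 of 16, beside 14%. The sterol response element was found in 1 of 21 and 0 of 16, beside 1.05%, and the C/EBP palindrome likewise in 1 of 21 and 0 of 16, beside 1.74%. The median GC content was 60.8% in member promoters and 52.4% in all promoters, and no share was adjusted for it. The motif matches are matches of letters in a window and were not tested.

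Elongation was split by enzyme. Elovl6, which extends saturated and monounsaturated chains made by fatty acid synthase, had 2.42, 4.35 and 2.99 FPKM in creeping fat 1 to 3, against 103.9, 13.2 and 51.5 FPKM in control 1 to 3. It fell by 3.35 ± 0.67 (adjusted p = 0.0182), and it was the 1 called gene of 3 tested. Elovl1, which extends very long saturated chains for sphingolipids, had 13.7, 12.1 and 13.7 FPKM in creeping fat and 10.4, 12.3 and 10.54 FPKM in controls, with overlapping groups and a difference of 0.23 ± 0.13 (adjusted p = 0.304). In creeping fat Elovl1 stood above Elovl6 in every library, and in controls below it in every library.

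Elovl5, an elongase of polyunsaturated chains, had 32.7, 31.3 and 28.2 FPKM in creeping fat and 49.8, 38.0 and 42.5 FPKM in controls. Its groups did not overlap, and its difference of -0.48 ± 0.15 was not called (adjusted p = 0.0809) except without control 2 (-0.57, adjusted p = 0.0165). Elovl3, an elongase of brown fat and sebaceous gland, and Elovl7 were under the filter. Elovl3 was measured by 4, 5 and 6 reads in creeping fat and 29, 5 and 6 reads in controls, and Elovl7 by 122, 128 and 73 reads and by 67, 179 and 91 reads. The groups of both genes overlapped. Elovl6 had adjusted p of 0.0763, 0.0683 and 0.0782 on leaving out creeping fat 1, creeping fat 3 and control 3.

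Among the 4 desaturases of the member list Scd1 was called lower, and Scd2, Fads1 and Fads2 were not. Outside that list Fads3 was also called lower (-1.93 ± 0.35, adjusted p = 0.0137). Scd3, also outside it, was under the filter and not tested. It had 0.104, 0.454 and 0.263 FPKM in creeping fat 1 to 3, against 12.2, 0.601 and 6.48 FPKM in control 1 to 3. Scd1, the main stearoyl-CoA desaturase of mouse fat and liver, puts the double bond into palmitate and stearate. It had 318, 669.9 and 559 FPKM in creeping fat 1 to 3, against 9601, 2293 and 5996 FPKM in control 1 to 3. By group mean it ranked 84 in creeping fat and 3 in controls among all genes of the table. Scd1 fell by 3.37 ± 0.56 (adjusted p = 0.00998) and was called in all 6 fits that leave out 1 library.

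Scd2, a desaturase of the same activity known from brain and the neonatal mouse, had 65.9, 73.2 and 61.7 FPKM in creeping fat and 241, 49.3 and 141 FPKM in controls. Control 2 lay below all creeping fat libraries, and the difference of -0.83 ± 0.53 was not called (adjusted p = 0.351). Without control 2 it was -1.45 and was called (adjusted p = 0.00403). Both genes lie on chromosome 19 in GRCm38, Scd1 from 44394455 to 44407879 on the minus strand and Scd2 from 44293674 to 44306864 on the plus strand. Reads shared by these close relatives may have been divided between them in ways not given in the sources used here.

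Fads1 and Fads2, which encode the front-end desaturases of polyunsaturated fatty acids and lie near each other on chromosome 19, were not called. Fads1 had 28.1, 33.5 and 29.2 FPKM in creeping fat and 55.8, 22.3 and 40.1 FPKM in controls. Fads2 had 19.6, 23.5 and 17.7 FPKM in creeping fat and 24.4, 12.5 and 16.4 FPKM in controls. The groups of both overlapped, with differences of -0.28 ± 0.32 (adjusted p = 0.618) and 0.22 ± 0.25 (adjusted p = 0.624). Fads1 was called lower without control 2 (-0.63, adjusted p = 0.0284).

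Of the 4 acyl-CoA synthetases, which activate free fatty acids, 1 fell, 1 rose and 2 were not called. Acsl1, the main form of adipocytes, had 18.5, 31.3 and 25.3 FPKM in creeping fat 1 to 3, against 182, 107.6 and 184 FPKM in control 1 to 3. It fell by 2.60 ± 0.28 (adjusted p = 0.00277), and it was called in all 6 fits that leave out 1 library. Acsl4, which prefers arachidonate, had 11.2, 12.6 and 9.78 FPKM in creeping fat and 6.75, 6.45 and 7.84 FPKM in controls. Its creeping fat libraries all lay above the controls, and it rose by 0.60 ± 0.15 (adjusted p = 0.0372). That call was lost without any 1 of the libraries other than control 2, with adjusted p of 0.139, 0.147 and 0.0752 on leaving out creeping fat 1, 2 and 3, and of 0.0953 and 0.081 on leaving out control 1 and control 3.

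Acsl5, a form of intestine and liver, had 27.0, 21.8 and 25.6 FPKM in creeping fat and 21.4, 25.05 and 24.8 FPKM in controls. Acsl3, a form of the endoplasmic reticulum and nascent lipid droplets, had 2.57, 3.15 and 2.14 FPKM in creeping fat and 3.55, 2.57 and 2.46 FPKM in controls. The groups of both overlapped, and their differences were 0.06 ± 0.15 (adjusted p = 0.841) and -0.09 ± 0.18 (adjusted p = 0.791). Fibroblast and macrophage markers rose in the same comparison, 7 of 8 of each list, and made up 2.25% to 2.98% and 0.829% to 1.42% of all FPKM in creeping fat, beside 0.239% to 0.333% and 0.183% to 0.378% in controls. Their part in the level of Acsl4 was not tested.

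The sequences before Acsl1 and Acsl4 are shown because these synthetases catalyse the same reaction and moved in opposite directions. For Acsl1, on chromosome 8 from 46471037 to 46536051, the stretch belongs to the downstream of its 2 RefSeq starts, chr8:46490716-46490965, plus strand. The stretch before the upstream start, chr8:46470787-46471036, lies directly before the GENCODE model. It has a GC content of 72.0% and 4 GC boxes, the motif also found before Acsl4. No sterol response element or CCAAT box was matched there, so the contrast between the sequences shown depends on which start is printed. The downstream stretch was the 1 member promoter with a match to the sterol response element, at -76 from the start and on the other strand, beside CCAAT boxes at -172 and -49. For Acsl4, on chromosome X from 142317993 to 142390535, it is chrX:142390536-142390785, minus strand, with 2 overlapping GC boxes at -22 and -18. Which start the reads of Acsl1 came from cannot be read from values per gene.
Acsl1: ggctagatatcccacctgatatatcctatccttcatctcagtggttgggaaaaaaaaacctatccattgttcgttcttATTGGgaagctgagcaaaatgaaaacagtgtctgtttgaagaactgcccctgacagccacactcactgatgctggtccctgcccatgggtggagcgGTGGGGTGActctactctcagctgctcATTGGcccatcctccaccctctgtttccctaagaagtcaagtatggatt
Acsl4: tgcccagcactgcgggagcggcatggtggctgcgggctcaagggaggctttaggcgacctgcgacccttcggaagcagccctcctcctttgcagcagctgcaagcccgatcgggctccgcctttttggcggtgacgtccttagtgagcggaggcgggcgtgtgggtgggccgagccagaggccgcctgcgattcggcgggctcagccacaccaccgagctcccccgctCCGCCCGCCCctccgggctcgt
Capitals mark the same 6 motifs as in the sequences of Fasn and Thrsp.

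Esterification fell in 8 of 12 genes, and Gpat4, Agpat1, Lpin2 and Lpin3 were not called. Glycerol phosphate acyltransferases start the chain. Gpam, the mitochondrial form, had 11.1, 17.8 and 12.99 FPKM in creeping fat 1 to 3, against 59.5, 34.6 and 49.3 FPKM in control 1 to 3, and fell by 1.70 ± 0.25 (adjusted p = 0.00711). Gpat3, a microsomal form of adipocytes, had 2.67, 7.52 and 4.41 FPKM in creeping fat and 37.9, 11.2 and 34.8 FPKM in controls, and fell by 2.22 ± 0.50 (adjusted p = 0.0279). Gpat4, the other microsomal form, had 16.5, 16.4 and 17.0 FPKM in creeping fat and 21.4, 19.95 and 25.2 FPKM in controls. No creeping fat library of Gpat4 reached a control, and its difference of -0.39 ± 0.14 was not called (adjusted p = 0.106) except without control 2 (-0.46, adjusted p = 0.0253). The call of Gpat3 was lost without creeping fat 1, creeping fat 3, control 1 or control 3, with adjusted p of 0.105, 0.0929, 0.086 and 0.108.

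Acylglycerol phosphate acyltransferases add the next fatty acid. Agpat2, the form whose loss causes generalized lipodystrophy in humans and mice, had 22.1, 43.1 and 32.3 FPKM in creeping fat, against 564, 160.3 and 300.4 FPKM in controls. Agpat3 had 15.6, 18.8 and 19.1 FPKM in creeping fat and 35.6, 31.1 and 33.2 FPKM in controls. Agpat1 had 26.4, 28.1 and 27.7 FPKM in creeping fat and 34.2, 33.9 and 32.6 FPKM in controls. The groups of all 3 did not overlap, but the sizes were far apart. Agpat2 fell by 3.22 ± 0.47 (adjusted p = 0.00655) and Agpat3 fell by 0.87 ± 0.14 (adjusted p = 0.00943), and Agpat1 was not called (-0.28 ± 0.12, adjusted p = 0.168). Exons of Agpat2 and Agpat1 overlap, on the other strand, exons of Egfl7 and Egfl8.

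Lipins remove the phosphate to give diacylglycerol. Lpin1, the form mutated in the fatty liver dystrophy mouse, had 10.995, 14.0 and 16.8 FPKM in creeping fat and 108.9, 50.5 and 88.1 FPKM in controls. Lpin2 had 3.47, 2.84 and 3.15 FPKM in creeping fat and 1.53, 4.33 and 1.99 FPKM in controls. Lpin3 had 4.56, 4.44 and 4.45 FPKM in creeping fat and 3.75, 5.19 and 3.31 FPKM in controls. Lpin1 was lower in every creeping fat library, whereas for Lpin2 and Lpin3 control 2 lay above and the other controls below the creeping fat libraries. Lpin1 fell by 2.43 ± 0.30 (adjusted p = 0.00419). Lpin2 (0.27 ± 0.28, adjusted p = 0.585) and Lpin3 (0.13 ± 0.17, adjusted p = 0.685) were not called, and without control 2 Lpin2 was called higher (0.59, adjusted p = 0.0194).

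The final acylation to triglyceride is made by Dgat1 and Dgat2, which are unrelated in sequence. Dgat2 had 32.6, 84.3 and 60.5 FPKM in creeping fat, against 1306, 314 and 1033 FPKM in controls. Dgat1 had 14.6, 19.1 and 16.3 FPKM in creeping fat and 66.7, 46.5 and 67.0 FPKM in controls. Dgat2 fell by 3.75 ± 0.59 (adjusted p = 0.00858) on the log2(FPKM + 1) scale, and Dgat1 fell by 1.78 ± 0.19 (adjusted p = 0.00286). Mogat1, an acyltransferase of monoacylglycerol, had 0.195, 0.789 and 0.56 FPKM in creeping fat and 10.3, 4.89 and 7.31 FPKM in controls. It fell by 2.46 ± 0.28 (adjusted p = 0.00322), on 10, 39 and 26 reads in creeping fat and 566, 216 and 449 reads in controls. Gpam, Agpat2, Agpat3, Lpin1, Dgat1, Dgat2 and Mogat1 were called in all 6 fits that leave out 1 library.

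**Figure D2:**
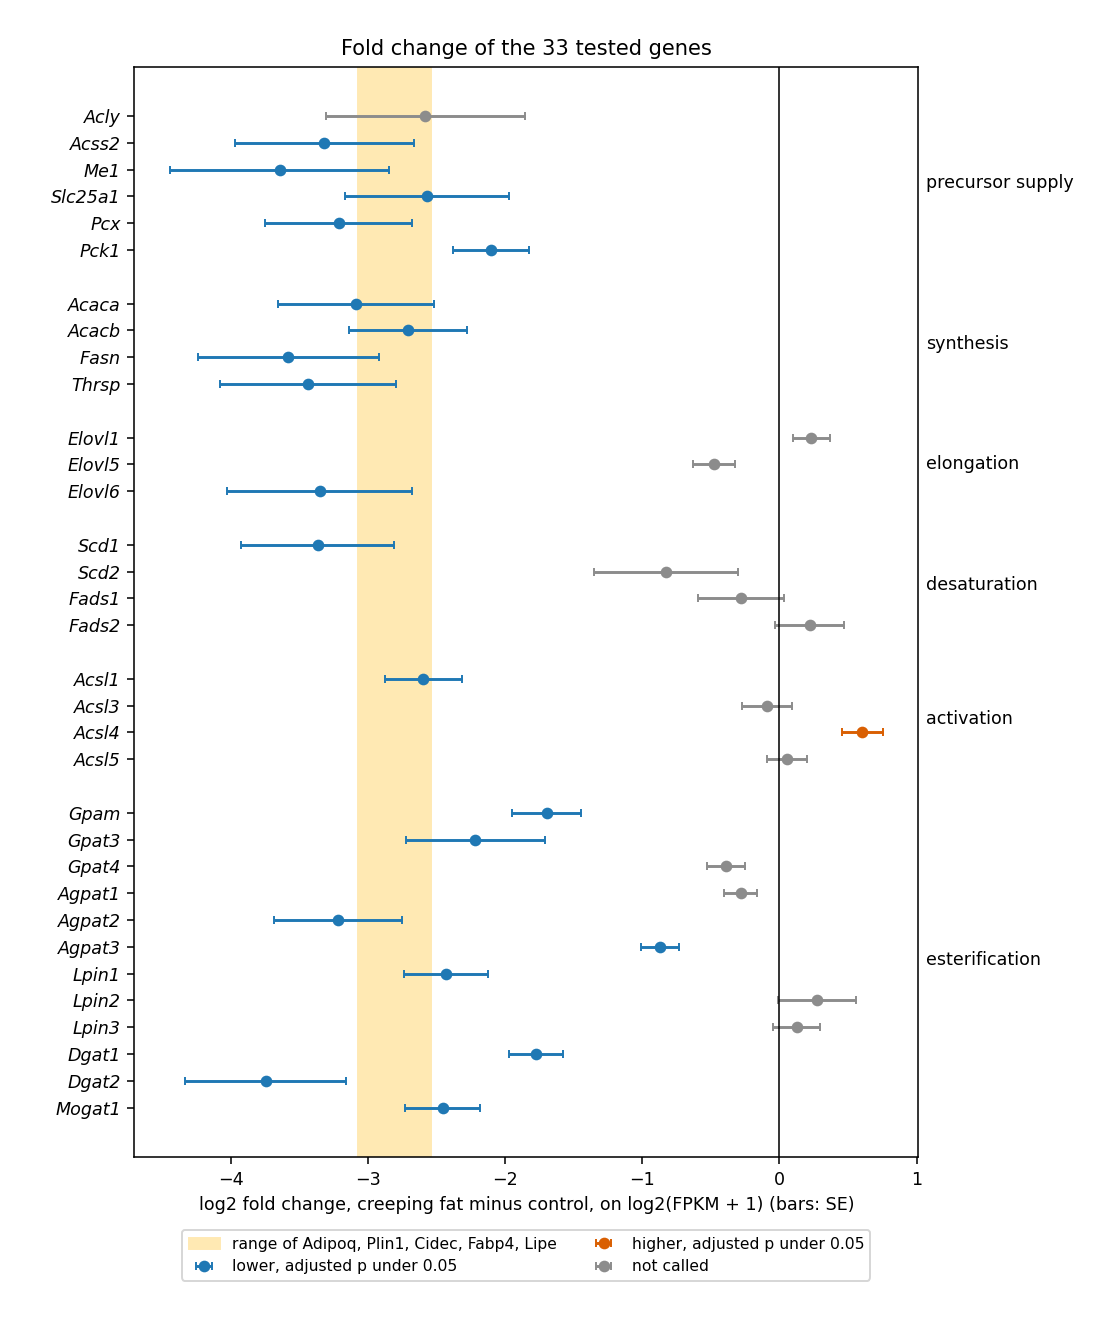
Log2 fold change (creeping fat minus control, on log2(FPKM + 1)) with its SE for the 33 tested genes, by step. The shaded band spans the fold changes of Adipoq, Plin1, Cidec, Fabp4 and Lipe, -3.07 to -2.54, and Elovl1, Fads2, Acsl3, Acsl5, Lpin2 and Lpin3 lie near 0.

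Pairs of enzymes that catalyse the same kind of reaction were set against each other within each library, so that the library's depth drops out. The pairs were chosen with the single-gene results known, and in 7 of 8 the gene with the larger fall was written on top, so the direction of those ratios, and much of the separation of the groups, was set by the choice. The ratios are given as a description of size. Those 7 ratios did not overlap between the groups, and no share over other pairs of genes was computed. Scd1 stood above Scd2 by a ratio of 4.82, 9.15 and 9.06 in the creeping fat libraries and 39.8, 46.5 and 42.4 in the controls. Control 2 lay with the other controls in this ratio, although it had the lowest level of both genes among the controls. On the log2 scale the ratio averaged 2.88 ± 0.53 in creeping fat and 5.42 ± 0.11 in controls (SD, n = 3 each), a difference of -2.54 with an exact two-sided permutation p = 0.1, the smallest that 3 against 3 libraries can give (0.114 adjusted over the 8 pairs).

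Acsl1 stood above Acsl4 by a ratio of 1.65, 2.49 and 2.59 in creeping fat, against 27.0, 16.7 and 23.4 in controls, a difference of -3.32 on the log2 scale. Dgat2 stood above Dgat1 by 2.23, 4.41 and 3.71 in creeping fat and 19.6, 6.76 and 15.4 in controls, a difference of -1.94. The pair Lpin1 and Lpin2 differed by -2.93, Agpat2 and Agpat3 by -2.36, Gpat3 and Gpat4 by -2.05 and Elovl6 and Elovl1 by -3.96. Each of these 6 pairs also had an exact permutation p of 0.1, and 0.114 adjusted over the pairs. The pairs were chosen with the results of these libraries known, so the p-values of the pairs are no test of the ratios.

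The carboxylases were the exception. Acacb stood below Acaca by a ratio of 0.361, 0.415 and 0.367 in creeping fat, against 0.247, 0.434 and 0.284 in controls. The groups overlapped through control 2, and the log2 difference of 0.29 had an exact two-sided permutation p of 0.4 (0.4 adjusted over the pairs).

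**Figure D3:**
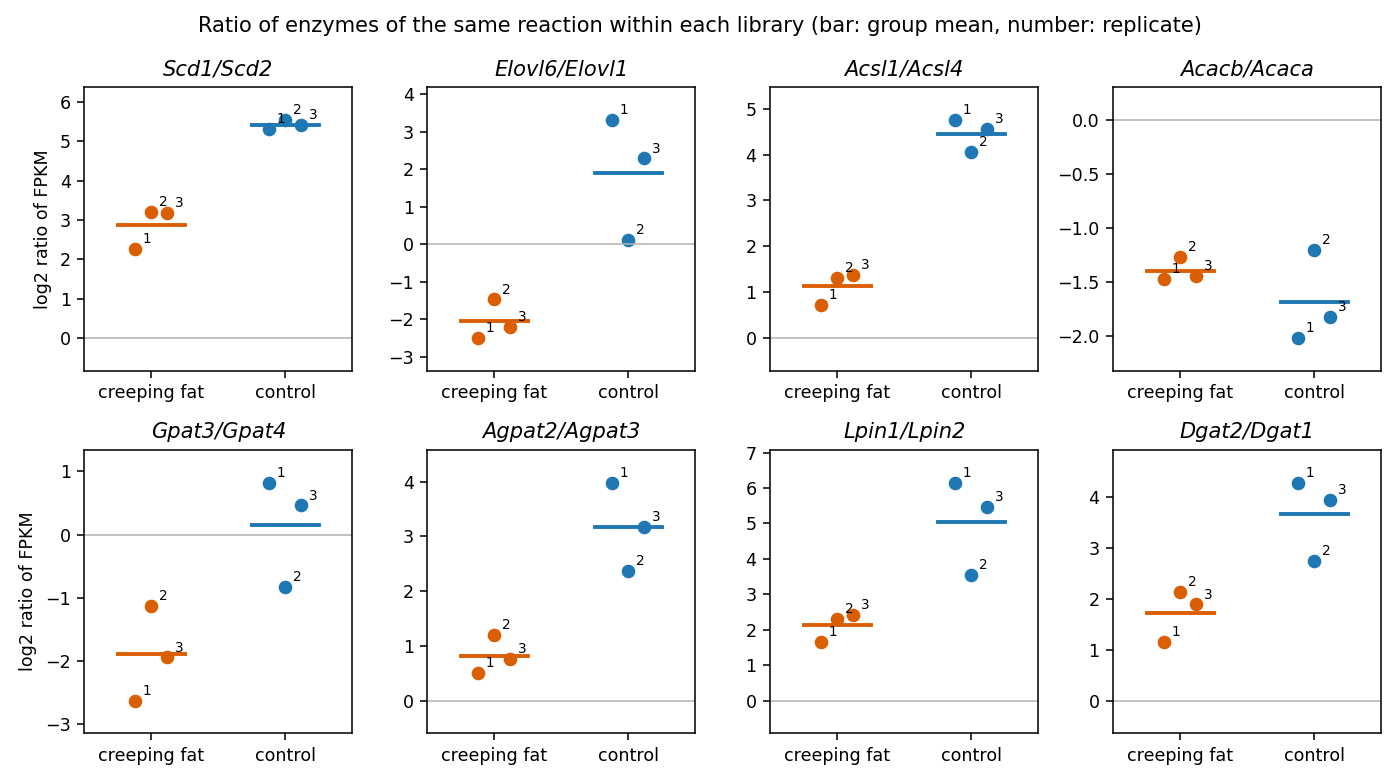
Log2 ratio of FPKM of 2 enzymes within each library, 3 creeping fat libraries (left, orange) and 3 control libraries (right, blue) per panel, with group means as bars and replicate numbers beside the points. Scd1/Scd2 averages 2.88 in creeping fat and 5.42 in controls, and Acacb/Acaca is the pair whose groups overlap.

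Together the 35 members made up 0.311%, 0.552% and 0.436% of all FPKM in the creeping fat libraries and 6.15%, 1.6% and 3.7% in the controls. Scd1 and Fasn alone made up 0.117%, 0.251% and 0.203% in creeping fat and 3.6%, 0.881% and 2.17% in controls. The desaturation step took the largest share of the 6 steps in every library, at 0.132% to 0.226% in creeping fat and 0.695% to 2.73% in controls. The shares of all 6 steps were lower in each creeping fat library than in each control library. Seminal vesicle and pancreatic transcripts took different shares of the groups. The fit was therefore repeated on FPKM rescaled to the total without the 8 seminal vesicle and 10 pancreatic acinar markers. Again 20 members were called lower and 1 higher. Other transcripts of these tissues stayed in the total, and a rescaled total does not remove their RNA.

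**Figure D4:**
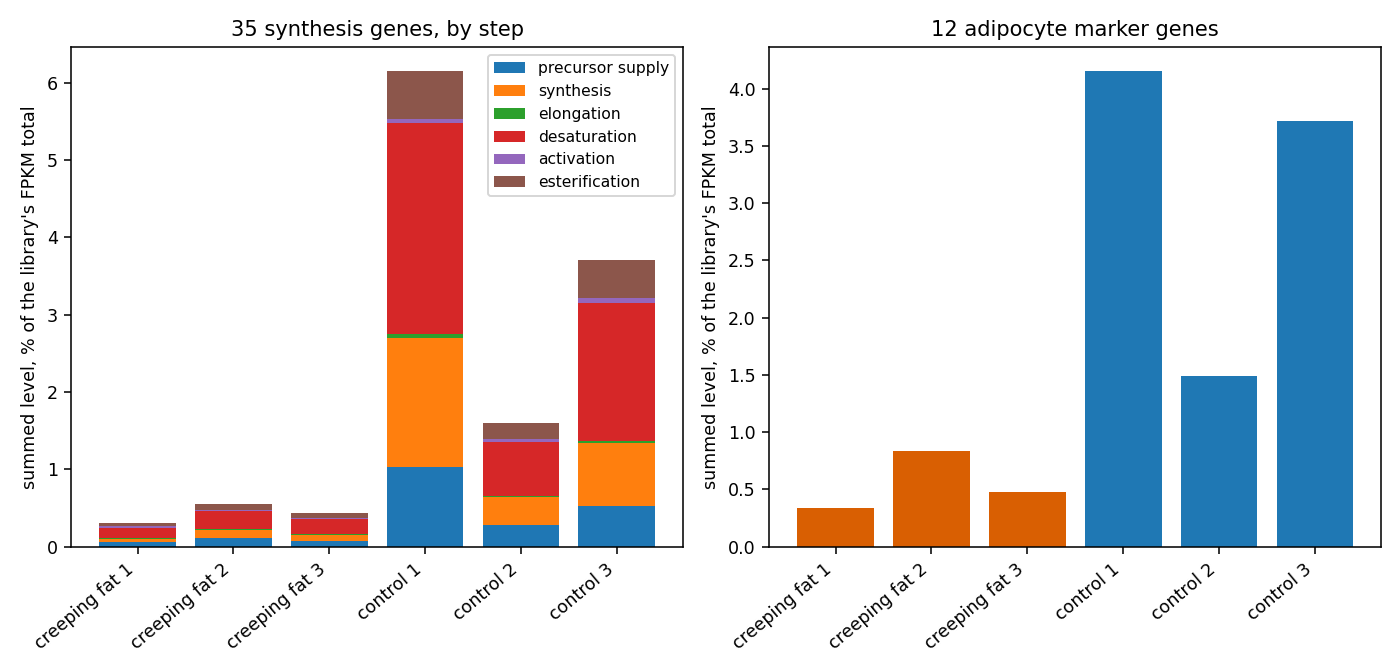
Summed FPKM of the 35 genes, stacked by step (left), and of 12 adipocyte markers (right), as a percentage of each library's FPKM total. The members reach 0.311% to 0.552% in creeping fat and 1.6% to 6.15% in controls, and the markers 0.339% to 0.832% and 1.49% to 4.15%.

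Adipocyte markers fell in the same libraries, 11 of the 12 of them, with a median log2 fold change of -2.90. The 5 transcripts chosen as a scale, which take no part in synthesis, were those of adiponectin (Adipoq), the droplet proteins Plin1 and Cidec, the fatty acid carrier Fabp4 and the lipase Lipe. They averaged 6.09, 7.29 and 6.75 on log2(FPKM + 1) in the creeping fat libraries and 9.96, 8.70 and 9.93 in the controls. On the FPKM scale Adipoq fell by 3.07 ± 0.52, Plin1 fell by 2.94 ± 0.42, Cidec fell by 2.88 ± 0.43, Fabp4 fell by 2.66 ± 0.50 and Lipe fell by 2.54 ± 0.35. Their mean was subtracted from each library and limma was run again on the whole table. On this scale 97.3% of all tested genes were called higher and 0.211% lower, since the scale itself fell by 2.82. Of the 20 members that had fallen 0 were lower, 19 were not called, and Agpat3 was higher (1.95 ± 0.64, adjusted p = 0.00256). Their relative differences went from -0.93 ± 0.56 for Dgat2 (adjusted p = 0.1) to that of Agpat3, with Me1 at -0.83 ± 0.59 (adjusted p = 0.168), Fasn at -0.76 ± 0.54 (adjusted p = 0.161) and Scd1 at -0.55 ± 0.52 (adjusted p = 0.296). These values do not show that the members fell alike with the markers. Of the other 13 tested members 12 were called higher, and Acly was not (0.24 ± 0.58, adjusted p = 0.682).

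The libraries within a group also differed in a shared order. Of the 20 members that fell, 18 were highest in creeping fat 2 and lowest in creeping fat 1, an order held by 17.6% of all tested genes and 44.6% of all genes called lower. All 12 adipocyte markers had that order too. Creeping fat 2 was also the creeping fat library with the largest share of pancreatic acinar markers, and a link was not tested. Among controls 17 of the 20 were highest in control 1 and lowest in control 2, an order held by 13.9% of all tested genes and 42.1% of those called lower, and by 6 of the 12 adipocyte markers. Genes share the library, so these counts describe the 6 libraries.

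The spread among the controls differed from gene to gene, among members and among adipocyte markers alike. The ratio of control 1 to control 3 lay between 0.679 (Pck1) and 2.86 (Me1) over the 20 members that fell, and between 0.389 (Lep, the leptin gene) and 1.77 (Cfd, adipsin) over the 12 markers. It was 2.72 for Slc25a1, 2.6 for Acss2, 2.3 for Fasn, 2.16 for Acaca, 2.02 for Elovl6, 1.88 for Agpat2 and 1.6 for Scd1, and 2.88 for Acly, which was not called. It lay nearer to 1 for Gpam (1.21), Gpat3 (1.09), Agpat3 (1.07), Dgat1 (0.997) and Acsl1 (0.991), and for the 5 adipocyte transcripts used as a scale, at 0.913 (Cidec) to 1.11 (Adipoq). Control 2 stood at 14% (Me1) to 93.0% (Pck1) of the mean of the other controls over the 20 members that fell, and at 22.7% (Retn, resistin) to 68.1% (Adrb3) over the 12 markers. The ranges of members and markers overlapped in both measures. These are ratios of single libraries and have no test.

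**Figure D5:**
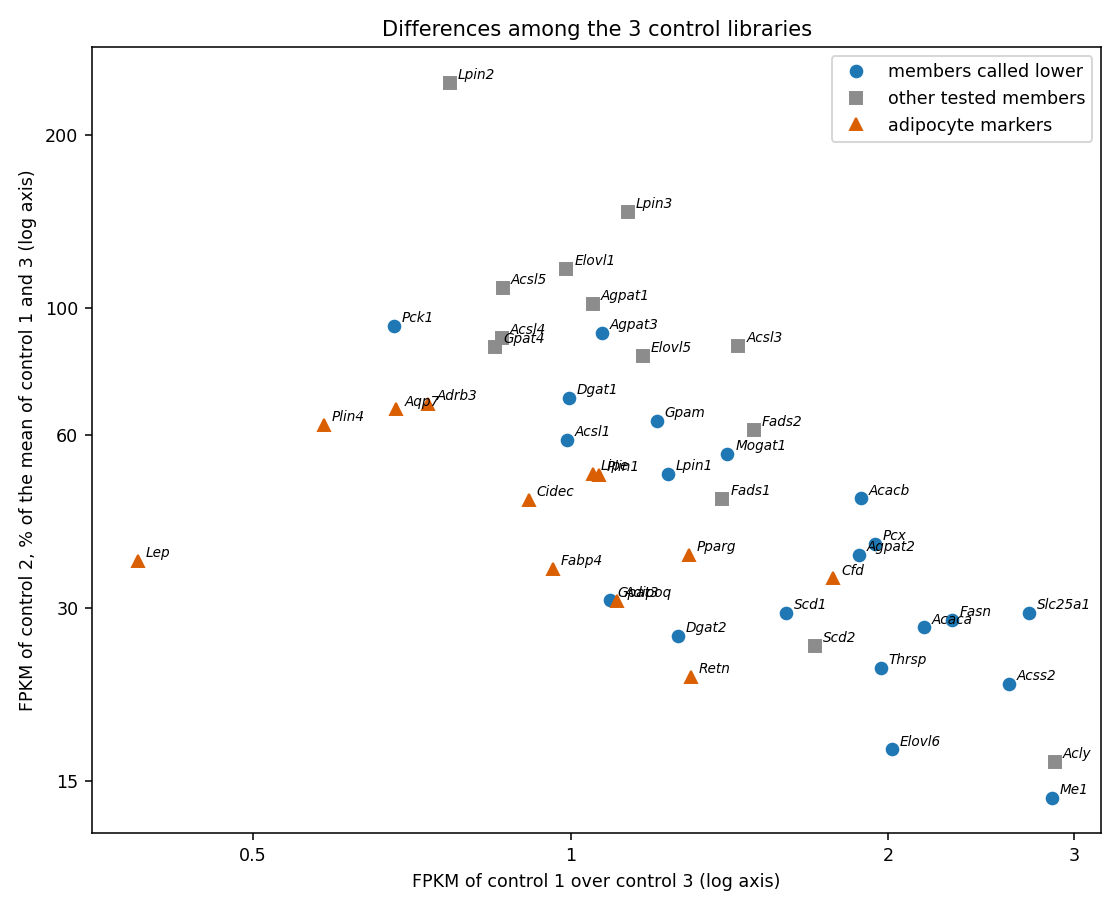
FPKM of control 1 over control 3 (horizontal, log axis) against FPKM of control 2 as a percentage of the mean of control 1 and 3 (vertical, log axis), for the 33 tested members and 12 adipocyte markers. Acly and Me1 lie at the lower right, at 2.88 and 2.86 and at 16.2% and 14%, and Pck1 at 0.679 and 93.0%.

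Of 52 other listed genes of the route 43 were tested in limma, 15 fell, 0 rose and 28 were not called, with a median log2 fold change of -0.76. At an unadjusted p under 0.05 there were 27 lower and 2 higher, beside 13.7% and 17% of all tested genes, and voom called 0 higher. Gpd1, the cytosolic glycerol phosphate dehydrogenase, had 22.2, 62.7 and 47.0 FPKM in creeping fat 1 to 3, against 787, 194 and 465 FPKM in control 1 to 3, and fell by 3.33 ± 0.57 (adjusted p = 0.0112). Fitm2, a protein of lipid droplet formation, had 8.74, 15.2 and 9.42 FPKM in creeping fat and 76.0, 40.3 and 72.1 FPKM in controls, and fell by 2.38 ± 0.31 (adjusted p = 0.00456). Dbi, the acyl-CoA binding protein, had 57.5, 116 and 66.5 FPKM in creeping fat and 579, 175 and 508 FPKM in controls, and fell by 2.27 ± 0.50 (adjusted p = 0.0243). All 3 genes were lower in every creeping fat library, but only Fitm2 of them was called whichever library was left out. Gpd1 had an adjusted p of 0.0522 without control 3, and Dbi had 0.0988, 0.0909, 0.0741 and 0.0964 without creeping fat 1, creeping fat 3, control 1 or control 3.

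By step, 4 of 13 tested genes of NADPH and precursor supply fell (Cs, Slc25a10, Acss3 and Aacs). So did 3 of 7 of synthesis (Mecr, Acsf3 and Mlycd, whose enzyme breaks malonyl-CoA down). Those 7 were genes of mitochondrial synthesis and malonyl-CoA turnover, and Mid1ip1, which was not called. In the elongation cycle 2 of 5 fell (Hsd17b12 and Hacd2). Fads3 fell among 4 desaturation genes, Slc27a1 and Dbi among 5 of activation, and Gpd1, Fitm2 and Bscl2 among 9 of esterification. The pentose phosphate enzymes G6pdx (-1.14 ± 0.44, adjusted p = 0.133) and Pgd (-1.54 ± 0.47, adjusted p = 0.0727), which supply NADPH beside Me1 and were singled out after their values were seen, were not called. Without control 2 the counts over the 43 genes were 27 lower and 2 higher, beside 1857 lower and 2896 higher of all 12812 genes tested. The 2 were Agpat4 (0.77, adjusted p = 0.0107) and Pck2 (0.85, adjusted p = 0.0188).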

How the data were processed

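RNA of 6 mouse adipose samples was sequenced with the TruSeq Stranded Total RNA kit (Ribo-Zero Gold), on RNA with an integrity number of at least 7, per the labels' protocols. The authors deposited FPKM values, fragments per gene length and library size, for 22134 genes, with build mm10 per the submitters' processing notes. Aligner, counting program, annotation and strand setting: not given in the sources used here. Within a gene the FPKM values are whole multiples of 1 read, and whole reads, within 0.002 reads, were recovered for 18713 of 18714 genes above 0, with library totals set from 306 short genes. A floor of 3 reads in 1000 bases equals 0.0691 to 0.0962 FPKM and covers counting error only. The 12812 genes that reached 1 FPKM in 3 or more libraries were tested on log2(FPKM + 1) with limma 3.58.1 and Benjamini-Hochberg adjustment. The fit used R 4.3.3, lmFit and eBayes with trend, group as the only term, two-sided. The test was checked on simulated data in which each gene varied independently. That check does not cover false calls from differences that genes share by library. For ratios of paired enzymes an exact permutation p was computed (scipy 1.17.1), on pairs chosen with the single-gene results known.

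Members, lists, pairs and motifs were chosen with earlier results of these data known. Every member was reported with its call. Of the other genes of the route those with the 3 largest called changes were given by value. Other settings were the pseudocount, the filter, quantile normalization, totals without the pancreatic and seminal vesicle markers, and a scale of adipocyte transcripts. Further ones were libraries left out, a replicate block, no trend, and voom on recovered reads, the last chosen after the data were seen.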

Additional observations from a re-analysis of the deposited data

How the results depend on the processing

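All 20 members called lower stayed so with a pseudocount of 0.1, quantile normalization, totals without pancreatic and seminal vesicle markers, no trend and voom. Of them 17 were called without a filter and 19 where the mean had to reach 5 FPKM, which leaves out Mogat1. With 1 library left out the members lower were 12 to 25 and higher 0 to 2, all tested genes lower 287 to 1857 and higher 576 to 2896, and other genes of the route lower 6 to 27 and higher 0 to 2. Without creeping fat 2 and control 2 together all tested genes were 1731 lower and 2713 higher, and other genes of the route 27 lower and 2 higher. No member was called higher without a filter or after quantile normalization (0 each, where Acsl4 had adjusted p of 0.0523 and 0.0718). Without a filter 9 other genes of the route were lower, and after quantile normalization 1 was higher. The cause was not tested.

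Same-numbered libraries did not deviate together (correlations of -0.181, -0.18 and -0.081). With 3 libraries per group these values cannot decide whether the numbers pair them. With a replicate block, which uses up degrees of freedom, 13 members were lower and 0 higher, 378 and 636 of all tested genes, and 8 other genes of the route were lower. For the paired ratios the block cannot change a difference of group means.

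Relative to adipocyte transcripts, a scale that itself fell, 0 members were lower and 13 higher, 27 and 12464 of all tested genes, and 0 and 32 other genes of the route. There the values turned positive for Acly (0.24, not called on either scale), Slc25a1 (0.25), Pck1 (0.72), Acacb (0.11), Elovl5 (2.34), Scd2 (1.99), Fads1 (2.54), Acsl1 (0.22), Acsl3 (2.73), Gpam (1.12), Gpat3 (0.60), Gpat4 (2.43), Agpat1 (2.54), Agpat3 (1.95), Lpin1 (0.39), Dgat1 (1.04) and Mogat1 (0.36). All 8 paired ratios, whose direction the choice of pairs mostly sets, kept their direction with 1 library left out and with 1 added to the FPKM. For the 7 ratios that did not overlap between the groups, leaving out 1 library cannot reverse the direction. Depth limits Elovl3, with at most 29 reads in a library.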
